A study of Mus musculus with 12 samples.

Results

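The genes examined here encode the subunits of the oxidative phosphorylation system that are made from nuclear DNA. They were taken from the count table of mouse bone marrow-derived macrophages (BMDMs) by symbol alone. The symbols beginning with Nduf followed by a, b, c, s or v and a digit name subunits of complex I, Sdha to Sdhd those of complex II, Uqcr those of complex III, Cox4 to Cox8 those of complex IV and Atp5 those of complex V. The table held 24421 symbols, of which 84 matched, and 80 of them had a total count of at least 10 over the 12 libraries. The 4 left out were Ndufa4l2, with a total count of 2, and Cox7b2, Cox8b and Cox8c, each with a total of 0. A filter on low counts then left 77 of the 80 for testing, among 11468 genes tested in all, and the 3 that did not pass were Cox4i2, Cox6a2 and Cox6b2. The 77 held 35 subunits of complex I, 4 of complex II, 8 of complex III, 13 of complex IV (including Ndufa4, which was first assigned to complex I, and Cox7a2l, a factor that joins complexes III and IV) and 15 of complex V. The remaining pair, Atp5s and Atp5sl, carries the symbol stem but does not encode a structural subunit.

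Complexes I to IV pass electrons from NADH and succinate to oxygen and, with the exception of complex II, pump protons across the inner mitochondrial membrane, and complex V, the ATP synthase, uses the resulting gradient to make ATP. Complexes I, III, IV and V mix subunits encoded in the nucleus with others encoded in mitochondrial DNA, whereas complex II is encoded in the nucleus alone. Macrophages are known to shift between respiration and glycolysis when they are activated, and succinate dehydrogenase, which is complex II, also works in the citric acid cycle.

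BMDMs came from C57BL/6 mice and had grown in culture with M-CSF (100 ng/mL) over 5 days, with the medium renewed on day 3. Stimulation lasted 4 h in all 4 groups. The labels give drug and stimulus together, whereas the study's methods place the drug shortly before the stimulus, so the order is uncertain. The groups differed in drug and stimulus: the DMSO Ova group received 5% DMSO and ovalbumin (Ova), the iBET Ova group 5.0 µM I-BET151 (iBET, an inhibitor of the BET family of bromodomain proteins) and Ova, the DMSO IC group DMSO and ovalbumin bound by IgG in an immune complex (IC), and the iBET IC group iBET and IC. The 5% DMSO is the value of the labels, which give no share of DMSO for the iBET groups. The study's methods state 5% DMSO for the injected drug only, and its drug for cultures was diluted from a stock in DMSO. The share of DMSO in the cultures is therefore uncertain. Cells of the same 3 mice (A, B and C) entered every group, with 1 library per mouse, so that there were 4 groups of 3 libraries. RNA from a whole culture was sequenced, and in such bulk samples fewer cells of a type and less RNA per cell cannot be told apart. The age of the mice was not given in the sources used here.

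Total counts were between 7.55 M and 17.4 M per library. The ribosomal precursor Rn45s took 1.41% to 7.83% of the counts in 11 libraries and 77.4% in that of mouse A with DMSO and Ova, where 1.77 M counts lay on other genes. Levels are given as CPM after TMM normalization, that is, as counts scaled to a common library size. The 8 macrophage markers all had counts in every library, and their summed level was 6325 to 7674 CPM in the DMSO libraries and 7136 to 8484 CPM in the iBET libraries. The summed markers of neutrophils reached at most 41.2 CPM and those of any of the 6 other cell types examined at most 2.57 CPM.

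The 77 members did not vary evenly over the 12 libraries: the DMSO libraries of mouse A, with Ova and with IC, stood apart. Relative to the mean log2 CPM of the other 10 libraries, 11 members (14.3%) were more than 1 log2 unit higher in mouse A's DMSO Ova library and 13 (16.9%) in its DMSO IC library, and 6 were higher in both. Over all genes tested the same shares were 8% and 7.19%. No member reached that distance above in any of the other 10 libraries, where 0.48% to 4.17% of all genes did. These 10 libraries themselves set the mean used, which draws them toward it. The highest of a member's 12 levels lay in one of the DMSO libraries of mouse A for 40 of the 77 members, and the lowest for 23.

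Atp5k, a small subunit of the membrane part of complex V, showed this most. Its level was 80.6, 5.52 and 5.14 CPM in the DMSO Ova libraries of mice A, B and C, and 42.8, 6.38 and 6.86 CPM in the DMSO IC libraries. With iBET it was 5.09, 6.84 and 7.45 CPM with Ova and 4.91, 6.78 and 4.08 CPM with IC, so that the DMSO libraries of mouse A were the high ones and the other 10 overlapped. Atp5j, which encodes a subunit of the stalk that holds the catalytic head in place, was at 124.8, 35.7 and 41.5 CPM in DMSO Ova, 27.0, 48.6 and 35.3 CPM in iBET Ova, 147, 20.8 and 24.2 CPM in DMSO IC, and 30.1, 15.7 and 17.6 CPM in iBET IC. The DMSO libraries of mouse A were again the highest of the 12, and with IC the DMSO value was above the iBET value in mice B and C as well. Ndufb7, an accessory subunit of complex I, was at 46.7 and 44.8 CPM in the DMSO libraries of mouse A and between 10.6 and 18.7 CPM elsewhere. Other members ran the opposite way. Atp5e, a small subunit of the ATP synthase head, was at 26.7 and 27.2 CPM in the DMSO libraries of mouse A and between 36.5 and 61.1 CPM in the other 10. The part of RNA quality in this was not tested.

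**Figure D1:**
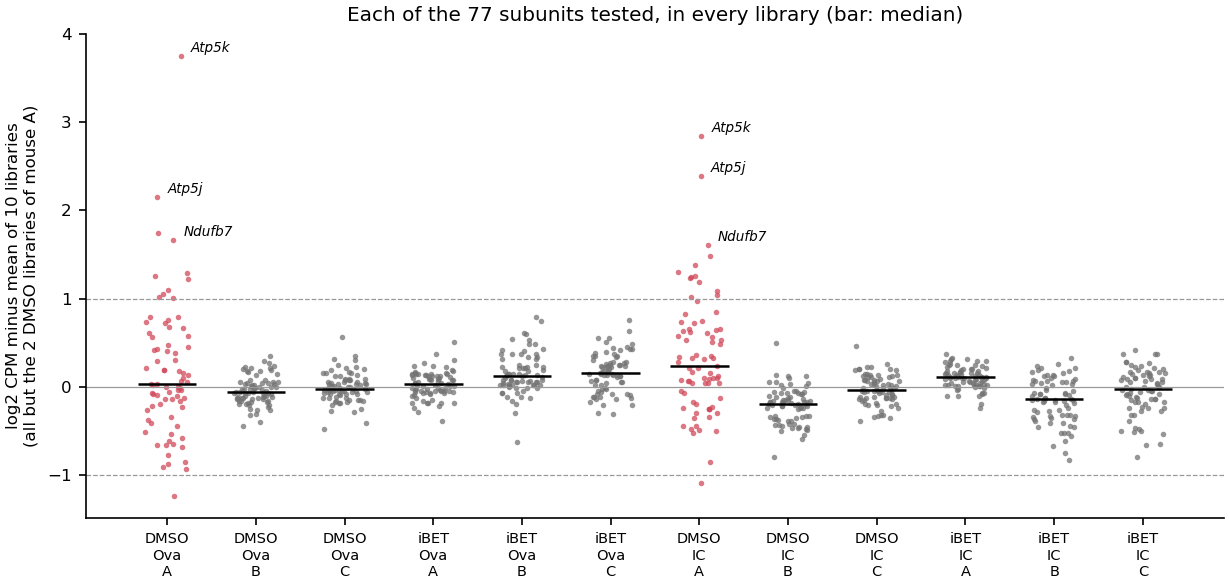
Each point is 1 of 77 members in 1 library, drawn as its log2 CPM minus its mean over the 10 libraries other than the DMSO libraries of mouse A, and libraries are set out by group and mouse. Points in the DMSO libraries of mouse A spread widely, up to 3.75 log2 units for Atp5k, and 11 and 13 members there lie above 1, while none of the other 10 libraries has a point above 1.

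The median SD within groups was 0.27 log2 units for the members and 0.23 for all genes tested, and 0.18 and 0.17 without the DMSO libraries of mouse A. Results below are therefore given with all 12 libraries and, where they moved, without the DMSO libraries of mouse A, an alternative chosen after seeing the data.

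Levels of different genes were compared per kilobase of exon (CPM per kb, median over 12 libraries). Complex V held the most abundant members: Atp5b, the catalytic beta subunit of the ATP synthase, was at 351 CPM per kb, and Atp5a1, the alpha subunit beside it, at 232 CPM per kb. Cox6c of complex IV followed at 184 CPM per kb and Atp5l of complex V at 162 CPM per kb. The median member of each complex lay at 32.9 CPM per kb in complex I, 48.5 in complex II, 42.7 in complex III, 64.5 in complex IV and 70.2 in complex V, and the ranges overlapped widely, as complex I alone ran from 6.75 CPM per kb for Ndufb3 to 117 CPM per kb for Ndufa2. These lengths count the exons of all transcripts of a gene that are paired with a RefSeq record. For 4 members (Atp5g1, Ndufv3, Ndufb8 and Ndufa5) the longest paired RefSeq transcript was over 2 times the shortest, so their place in this order depends on the isoform.

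**Figure D2:**
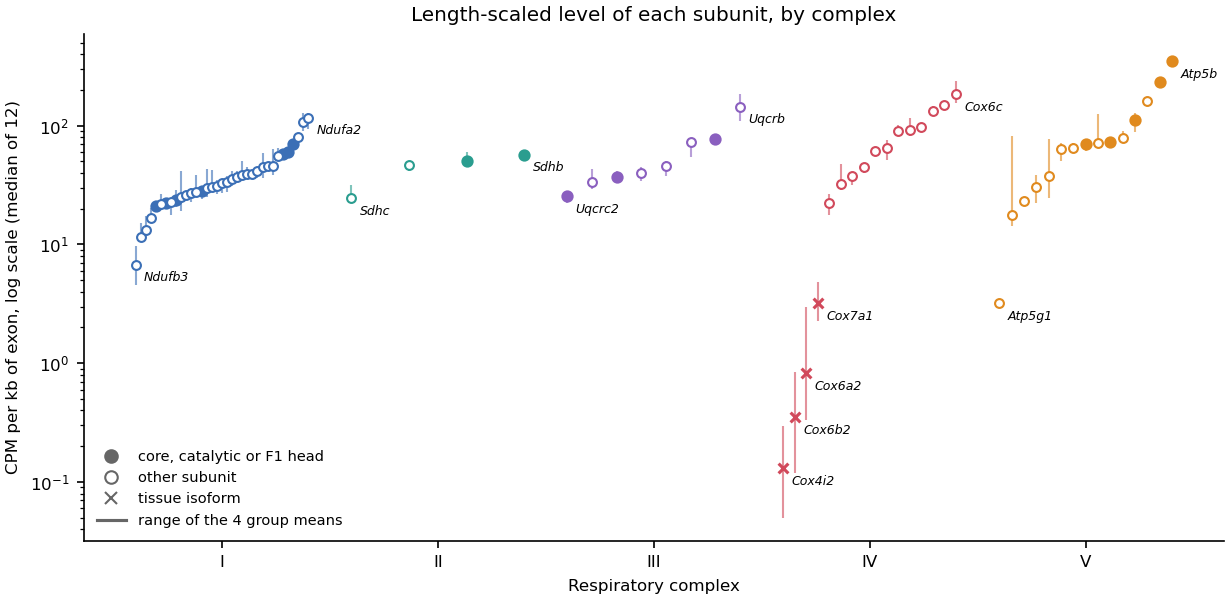
Median level over 12 libraries of each member of a complex, in CPM per kb of exon on a log axis; filled points are core or catalytic subunits, open points other subunits, crosses tissue isoforms, and bars the range of the 4 group means. Atp5b at 351 and Atp5a1 at 232 CPM per kb are the highest, and the tissue isoforms of complex IV, such as Cox4i2 at 0.13 CPM per kb, lie far below their ubiquitous counterparts.

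Where a subunit has isoforms, BMDMs used the widely expressed one. Cox6a1 was at 44.8 CPM per kb and Cox6a2, its heart and muscle form, at 0.82. Cox7a2 was at 37.4 CPM per kb and Cox7a1, the muscle form, at 3.22. Cox4i1, the main regulatory subunit of complex IV, was at 148 CPM per kb, while Cox4i2, the form known from lung, was at 0.13. Cox6b2, known from testis, was at 0.35 CPM per kb. Cox8a was at 90.1 CPM per kb, with total counts of 0 for Cox8b and Cox8c, and of the Atp5g genes, whose proteins form the ring that turns in the membrane, Atp5g3 was at 63.4 and Atp5g2 at 23.0 CPM per kb. Atp5g1 was at 3.20 CPM per kb over the exons of all its paired transcripts and at 25.7 CPM per kb over the shortest of them. Its rank beside Atp5g2, which also matches another gene over 88.2% of its transcript, is therefore uncertain.

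The comparison of iBET with DMSO asked what BET inhibition does to these transcripts with either stimulus. Few members passed the test. With Ova, 1 of 77 members rose, Atp5a1, and none fell, where 17.1% of all genes tested rose and 14.2% fell (edgeR, adjusted p under 0.05). With IC, 6 of 77 rose and none fell, where 19.0% of all genes rose and 15.8% fell. The 6 were Cox5a, Cox6b1 and Cox7a2l of complex IV, Uqcrh and Uqcrq of complex III, and Atp5a1 of complex V, and their rises were between 0.26 and 0.68 on the log2 scale. At an unadjusted p under 0.05 there were 8 members with Ova (7 higher and 1 lower; 10.4% of the 77, against 41.6% of all genes) and 10 with IC (8 higher and 2 lower; 13%, against 44.4%). DESeq2 called 1 of the members higher with Ova, Atp5a1, and 5 with IC, which were those named above without Uqcrq. It called none of the 77 lower with Ova and 1, Ndufb7, lower with IC, where it called 28.5% and 31.6% of all genes.

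The median log2 fold change of the 77 members was 0.06 with Ova and -0.05 with IC, against 0.02 and 0.00 over all genes tested. Of the 77, 50 were above 0 with Ova and 32 with IC. The median with IC changed sign with the libraries used: it was 0.07 without mouse A's DMSO IC library and 0.08 without both DMSO libraries of mouse A, and with Ova it was 0.09 without both. Per mouse the medians for A, B and C were -0.14, 0.19 and 0.13 with Ova and -0.15, 0.08 and -0.02 with IC. The middle 90% of all genes ran from -1.23 to 1.01 with Ova and from -1.28 to 1.05 with IC, and 76 and 75 members lay inside it, the exceptions being Atp5k with either stimulus and Atp5j with IC. The 95% interval of the change lay within a 2-fold change in either direction for 66 members (85.7%) with Ova and 58 (75.3%) with IC, against 62.7% and 62.2% of all genes. Without the DMSO libraries of mouse A this was so for 75 and 74 of the 77 members, and for 7703 and 7647 of 11616 genes. The comparisons with Ova and with IC use separate libraries.

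**Figure D3:**
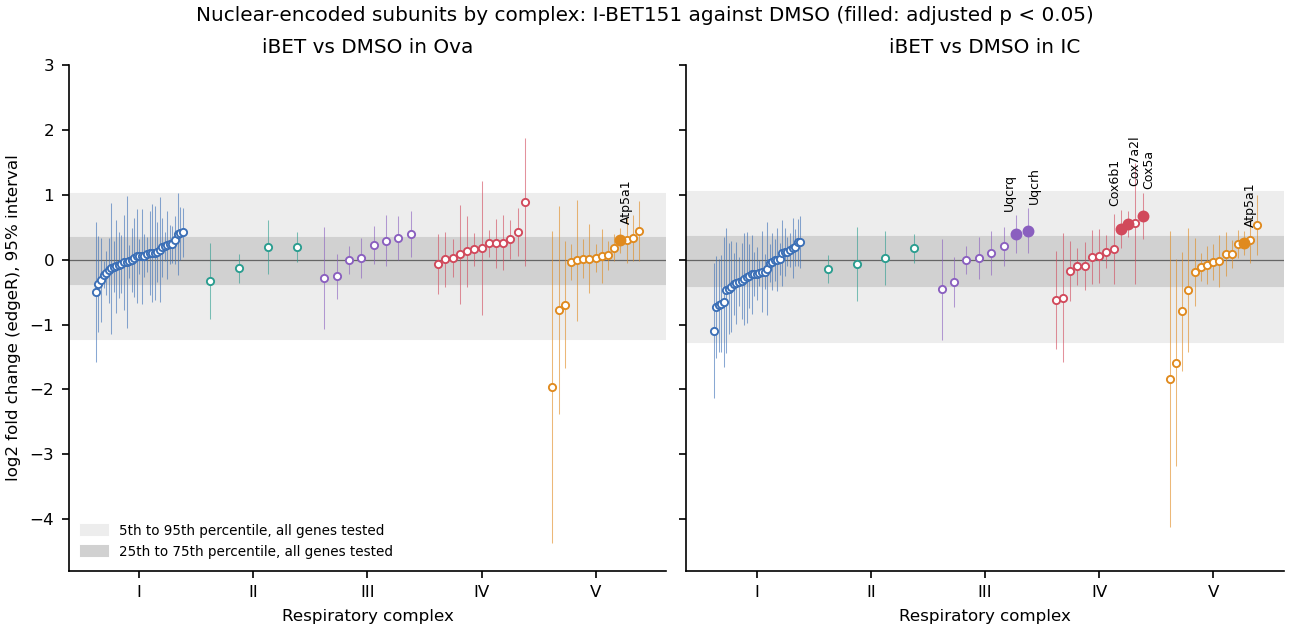
Log2 fold change of iBET against DMSO for each of the 75 members tested that belong to a complex, with its 95% interval, in Ova and in IC; filled points have an adjusted p under 0.05 and the shaded bands hold the middle 50% and 90% of all genes tested. Filled points number 1 with Ova and 6 with IC, all above 0, and the widest intervals belong to Atp5k and Atp5j.

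Leaving out libraries changed which members passed. Without the DMSO libraries of mouse A, 36.8% of all genes were called in each comparison. With IC, Cox5a, Cox6b1, Cox7a2l and Uqcrh still passed as higher, Atp5a1 (adjusted p = 0.101) and Uqcrq (0.0703) did not, and Ndufs1 fell by 0.26 (0.0486). With Ova, Atp5a1 was at 0.24 (0.0554), and those that passed were Uqcrh (0.56), Sdha (0.34) and Ndufa10 (0.24) as higher, and Ndufs1 (-0.29) and Uqcrc2 (-0.35) as lower. With mouse as a replicate block, 3 members were higher with Ova, Atp5a1 with Cox6b1 (adjusted p = 0.0343) and Uqcrh (0.0441), where 38.3% of all genes were called. With IC the block gave 7 higher, adding Atp5e (0.0344), and 1 lower, Ndufb3 (0.0335), where 42.1% of all genes were called.

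Complex IV, cytochrome c oxidase, hands electrons to oxygen. With IC, 3 of its 13 members tested (23.1%) rose and none fell, near the 19.0% of all genes that rose, and the median of the 13 was 0.06 (0.21 without the DMSO libraries of mouse A). With Ova none passed, 3 were higher at an unadjusted p under 0.05, none of the 13 was called by DESeq2, and the median was 0.18. Above 0 were 12 members with Ova and 8 with IC.

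Cox7a2l, the supercomplex factor (chr17:83501918-83517330, minus strand), had the smallest adjusted p of the 77. It was at 53.9, 58.2 and 64.3 CPM in the DMSO IC libraries of mice A, B and C and at 90.0, 82.5 and 85.3 CPM in the iBET IC libraries. All iBET values lay above all DMSO values, and the rise was 0.55 on the log2 scale (SE 0.09, 95% interval 0.34 to 0.75, adjusted p = 0.000738), or 1.46-fold. With Ova its levels were 69.3, 69.6 and 68.4 CPM in DMSO and 89.3, 78.0 and 79.9 CPM in iBET, again without overlap, with a log2 change of 0.25 (SE 0.09, adjusted p = 0.0592) that did not pass. Over 201 bases (17.8% of its transcript) Cox7a2l matches the pseudogene Gm6969 at 100% identity, so part of its reads may be shared.

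Cox5a (chr9:57521274-57532426, plus strand), a subunit on the matrix side, had the largest rise with IC. The DMSO IC libraries were at 17.9, 18.6 and 21.3 CPM and the iBET IC libraries at 31.7, 28.9 and 31.8 CPM. The groups were well apart, and the log2 change was 0.68 (SE 0.16, 95% interval 0.32 to 1.03, adjusted p = 0.00704), or 1.60-fold. With Ova the DMSO libraries were at 15.4, 20.4 and 20.0 CPM and the iBET libraries at 31.6, 25.5 and 19.7 CPM, and the groups overlapped since mouse C was level (0.43, adjusted p = 0.0724). Cox5a overlaps Gm26631 on the opposite strand, and since the use of strand in counting is not given in the sources used here, reads of the overlap cannot be told apart.

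Cox6b1 (chr7:30616861-30626151, minus strand), which faces the intermembrane space, was at 45.4, 52.0 and 56.8 CPM in DMSO IC and at 62.1, 77.2 and 74.5 CPM in iBET IC. The groups did not overlap, and the log2 change was 0.47 (SE 0.14, 95% interval 0.17 to 0.77, adjusted p = 0.0178). With Ova its levels were 45.2, 55.7 and 51.0 CPM in DMSO and 60.0, 56.5 and 74.6 CPM in iBET, with mouse B nearly level (0.32, adjusted p = 0.102). The other subunits of complex IV did not pass with either stimulus. Cox4i1 was at 103 ± 9.98 CPM (mean ± SD, n = 3) in DMSO Ova, 114 ± 1.97 in iBET Ova, 108 ± 13 in DMSO IC and 118 ± 13.1 in iBET IC, and Cox5b at 128 ± 23.0, 121 ± 13.5, 122 ± 42.9 and 108 ± 10.1 CPM in the same order.

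Cox6a2 stood out among the isoforms at low counts. Its counts were 8, 10 and 14 in the DMSO Ova libraries and 3, 0 and 4 in the iBET Ova libraries, too few for the filter. It was called lower with Ova when edgeR was run with no filter (log2 change -2.59, adjusted p = 0.0236) and by DESeq2 (-2.90, adjusted p = 0.00590). The count of 8 in mouse A fell in the library with 1.77 M counts outside Rn45s and corresponds to 4.11 CPM, against 0.77 and 1.16 CPM in mice B and C.

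Complex III passes electrons from ubiquinol to cytochrome c. With IC, 2 of its 8 members (25%) rose, both of them small supernumerary subunits, and none fell, where 19.0% of all genes rose. With Ova none passed, 1 was higher at an unadjusted p under 0.05 and none was called by DESeq2. The medians of the 8 were 0.12 with Ova and 0.07 with IC.

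Uqcrh, the hinge protein at the cytochrome c docking site (chr4:116066965-116075071, minus strand), was at 30.5, 28.0 and 31.7 CPM in DMSO IC and at 40.5, 41.6 and 40.9 CPM in iBET IC. The groups did not overlap, and the log2 change was 0.45 (SE 0.16, 95% interval 0.10 to 0.79, adjusted p = 0.0448). With Ova the DMSO libraries were at 44.7, 26.5 and 30.3 CPM and the iBET libraries at 40.4, 39.5 and 49.2 CPM. Mouse A, whose DMSO Ova library was the high one, differed in sign from mice B and C, and the change was 0.40 (adjusted p = 0.0840) with it and 0.56 (adjusted p = 0.00260) without the DMSO libraries of mouse A. Uqcrh overlaps Gm12854, so part of its reads may be shared.

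Uqcrq (chr11:53427922-53430831, minus strand), a ubiquinone-binding subunit, was at 50.3, 45.2 and 59.3 CPM in DMSO IC and 65.7, 58.6 and 79.9 CPM in iBET IC. The lowest iBET value, in mouse B, lay just under the highest DMSO value, in mouse C, while within each mouse iBET was higher. The log2 change was 0.40 (SE 0.13, 95% interval 0.11 to 0.69, adjusted p = 0.0341). DESeq2 did not call Uqcrq with IC, and it was called in 18 of 30 alternatives. With Ova it was 0.22 (adjusted p = 0.237), with levels of 53.9, 54.4 and 61.5 CPM in DMSO and 65.8, 62.0 and 71.0 CPM in iBET. The core subunits did not pass. Uqcrc1 was at 133 ± 10.5, 132 ± 9.60, 125 ± 4.59 and 125 ± 12.0 CPM with DMSO and iBET in Ova and then in IC, Uqcrc2 at 50.6 ± 5.41, 42.6 ± 2.37, 47.4 ± 11.0 and 51.0 ± 4.59 CPM, and the iron-sulfur subunit Uqcrfs1 at 46.2 ± 6.24, 47.5 ± 2.32, 49.1 ± 8.12 and 56.7 ± 6.33 CPM.

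Complex V had 1 of 15 members called (6.67%), Atp5a1, which rose with either stimulus, where 17.1% of all genes rose with Ova and 19.0% with IC. The medians of the 15 were 0.03 with Ova and -0.03 with IC. Atp5a1 was at 494.1, 508 and 536 CPM in DMSO Ova and at 597, 621 and 674 CPM in iBET Ova. The groups did not overlap, and the log2 change was 0.30 (SE 0.09, 95% interval 0.11 to 0.48, adjusted p = 0.0199). In DMSO IC it was at 508, 549 and 546 CPM and in iBET IC at 646, 624 and 649.6 CPM, again apart, with a log2 change of 0.26 (SE 0.09, 95% interval 0.07 to 0.45, adjusted p = 0.0332). Atp5a1 overlaps Haus1, which had a mean of 7.66 CPM, so part of its reads may be shared. Atp5b was at 639 ± 29.0, 727 ± 62.5, 661 ± 50.6 and 701 ± 30.8 CPM with DMSO and iBET in Ova and then in IC, with log2 changes of 0.19 (adjusted p = 0.169) and 0.08 (0.534), and Atp5c1, the shaft of the head, at 128 ± 13.4, 130 ± 11.2, 138 ± 6.57 and 128 ± 4.67 CPM.

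**Figure D4:**
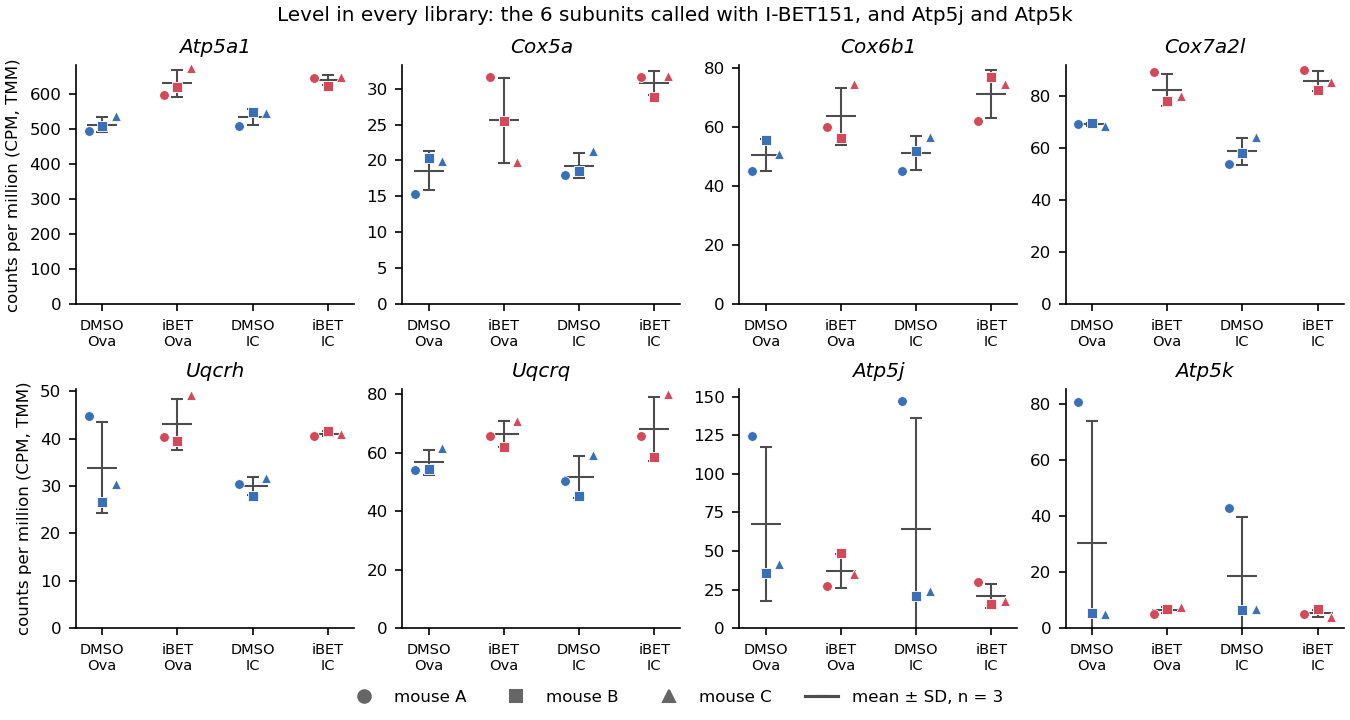
Level in CPM of 8 members in each library, by group, with the mean and SD (n = 3; lower bars cut at 0) and a separate linear axis for each member. In Atp5a1, Cox5a, Cox6b1, Cox7a2l, Uqcrh and Uqcrq the iBET IC libraries lie above the DMSO IC libraries, with 1 crossing in Uqcrq (58.6 against 59.3), while in Atp5j and Atp5k the DMSO libraries of mouse A alone lie high.

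The largest fitted falls of all 77 were those of Atp5k and Atp5j, and neither passed. Atp5k was at -1.96 with Ova (SE 1.09, adjusted p = 0.199) and -1.84 with IC (adjusted p = 0.195), and without the DMSO libraries of mouse A at 0.23 and -0.36. Atp5j was at -0.78 with Ova (adjusted p = 0.455) and -1.59 with IC (SE 0.72, adjusted p = 0.114), and without those libraries at -0.10 with either stimulus. The size of these folds rested on mouse A. In mice B and C alone, Atp5j with IC was lower in iBET by 0.40 and 0.45 log2 units.

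Complex I, the NADH dehydrogenase, had no member called among 35 in either comparison, where 31.3% of all genes were called with Ova and 34.8% with IC. At an unadjusted p under 0.05 there were 3 (2 higher and 1 lower) with Ova and 2, both lower, with IC. DESeq2 called Ndufb7 lower with IC (log2 change -1.12, adjusted p = 0.0372), the member whose DMSO libraries of mouse A were high. The median of the 35 was 0.05 with Ova and -0.21 with IC, and 20 and 9 were above 0. Of the 28 accessory subunits 6 were above 0 with IC, with a median of -0.24, and the 7 core subunits had a median of -0.05. Without the DMSO libraries of mouse A these medians changed sign: the 35 stood at 0.08 with IC, with 23 above 0, and the 28 accessory subunits at 0.10, with 20 above 0. The summed level of the 35 was 1357 ± 141 CPM in DMSO Ova, 1387 ± 102 in iBET Ova, 1384 ± 334 in DMSO IC and 1245 ± 111 in iBET IC, and the large SD in DMSO IC came from mouse A, at 1763 CPM against 1131 and 1259 CPM in mice B and C. Ndufs1, the largest core subunit, was at 59.1, 59.7 and 65.7 CPM in DMSO Ova and 50.7, 54.8 and 52.5 CPM in iBET Ova, without overlap (log2 change -0.23, adjusted p = 0.0854), and at 60.3, 62.8 and 66.2 CPM in DMSO IC and 50.2, 58.7 and 55.5 CPM in iBET IC (-0.20, adjusted p = 0.107). Ndufv1, which binds NADH, was at 33.2 ± 2.72, 35.2 ± 3.19, 33.5 ± 4.32 and 37.0 ± 1.74 CPM in the 4 groups.

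Complex II had no member called among 4, where 31.3% of all genes were called with Ova and 34.8% with IC. None was at an unadjusted p under 0.05 and none was called by DESeq2, and each 95% interval lay within a 2-fold change. Sdha, the flavoprotein, was at 192, 132 and 134 CPM in DMSO Ova, 149.6, 178 and 190.1 CPM in iBET Ova, 184, 111 and 122 CPM in DMSO IC, and 144, 147 and 132 CPM in iBET IC. Its DMSO libraries of mouse A were the first and the third highest of the 12, and mouse A changed in the opposite direction to mice B and C with either stimulus. The fitted log2 changes were 0.19 with Ova (adjusted p = 0.490) and 0.02 with IC (0.939). Sdhb, the iron-sulfur subunit, was at 68.9 ± 3.46, 63.0 ± 1.66, 67.1 ± 3.60 and 60.7 ± 6.82 CPM, with changes of -0.14 in each comparison. The membrane anchors Sdhc and Sdhd had changes of -0.33 and 0.20 with Ova and of -0.07 and 0.18 with IC.

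The comparison of IC with Ova asked whether engagement of Fc receptors moved these transcripts. In DMSO no member of 77 was called, where 1.22% of all genes were, with 3 members (2 higher and 1 lower) against 11.7% of all genes at an unadjusted p under 0.05, none by DESeq2, and a smallest adjusted p of 0.349, that of Cox7a2l. In iBET no member was called, where 0.349% of all genes were, with 1 member, lower, against 7.5% of all genes at an unadjusted p under 0.05, none by DESeq2, and a smallest adjusted p of 0.410, that of Uqcr11. The median change of the 77 was 0.03 in DMSO and -0.08 in iBET, and 43 and 21 members were above 0. The median in DMSO also changed sign, at -0.12 without mouse A's DMSO IC library and 0.11 without that of mouse B, and per mouse it was 0.11, -0.17 and 0.01 in A, B and C. The interaction (how far the change from Ova to IC in iBET departed from that in DMSO) gave no call among the members by edgeR or DESeq2, where edgeR called none of all genes (0%) and DESeq2 4 (0.0239%), with 2 members, 1 in each direction, at an unadjusted p under 0.05. These 3 comparisons share libraries with those of iBET against DMSO.

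In iBET the count depended on mouse A. Per mouse, the median change of the 77 from Ova to IC was 0.08 in mouse A, -0.25 in mouse B and -0.17 in mouse C. Without mouse A, 12 members fell and 0 rose, where 2.66% of all genes were called in either direction. They were Ndufa5, Ndufa12, Ndufa13, Ndufs5 and Ndufv3 of complex I, Uqcr11 and Uqcrb of complex III, Cox6c, Cox8a and Ndufa4 of complex IV, and Atp5j and Atp5j2 of complex V. Ndufa13, an accessory subunit also known as a partner of STAT3, was at 36.5, 56.2 and 57.1 CPM in iBET Ova and 42.2, 29.3 and 23.5 CPM in iBET IC. Mice B and C were lower with IC and mouse A was not, and the change was -0.64 with 3 mice (adjusted p = 0.826) and -1.08 without mouse A (adjusted p = 0.00263). Atp5j, at 27.0, 48.6 and 35.3 CPM in iBET Ova and 30.1, 15.7 and 17.6 CPM in iBET IC, gave -0.79 (adjusted p = 0.876) and -1.31 (0.00334). This rests on 2 mice in each group, and the labels set mouse A apart in no way. In DMSO the same omission gave 1 member of 77, Atp5j, as lower (-0.77, adjusted p = 0.0463), where 1.38% of all genes were called in either direction. The omission of mouse A gave 8 members higher and 0 lower with iBET in Ova, where 33.6% of all genes were called in either direction.

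Genes outside the symbol rule that belong to the same system were counted from lists. The 6 further subunits and carriers tested, cytochrome c (Cycs) and Cyc1 of complex III among them, had no call with either stimulus by edgeR and none at an unadjusted p under 0.05. None of 26 names of subunits encoded in mitochondrial DNA was a row of the table, so the 2 genomes could not be compared here. Factors that build the complexes held calls in both directions, at shares to be read against the 31.3% of all genes called with Ova and the 34.8% called with IC. Of 14 assembly factors of complex I, 2 rose and 4 fell with Ova (42.9%) and 1 rose and 1 fell with IC (14.3%). Of 24 for complex IV, 5 rose and 4 fell with Ova (37.5%) and 3 rose and 5 fell with IC (33.3%). Of 10 for complexes II and III, Ttc19 rose with either stimulus, and of 3 for complex V, Atpaf1 fell with either. In the comparisons of IC with Ova none of these lists held a call. That these lists differ from the subunits was not tested.

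Among the factors called with either stimulus, Ndufaf4 of complex I assembly fell by 0.62 with Ova and 0.69 with IC, while Acad9, which has a role in both fatty acid oxidation and complex I assembly, rose by 0.47 and 0.36. Of the complex IV factors, Pet117 fell by 1.06 and 1.45, Fastkd2, a mitochondrial RNA-binding protein, by 1.29 and 0.78, and Cox10, which makes heme for the oxidase, by 0.78 and 0.68. Cmc2 rose by 0.91 and 1.07, Cox19 by 0.71 and 0.52, and Taco1, a translational activator, by 0.58 and 0.57. Ttc19, known from complex III, rose by 0.81 and 0.80. Atpaf1, a chaperone of the ATP synthase head, was at 6.68, 4.29 and 5.97 CPM in DMSO Ova and 1.62, 2.10 and 1.35 CPM in iBET Ova, and fell by 1.68 with Ova and 0.91 with IC.

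Of 15 regulators of respiratory genes tested, 5 (33.3%) fell and none rose with either stimulus, where 14.2% of all genes fell with Ova and 15.8% with IC and 31.3% and 34.8% were called in either direction. Gabpa, the DNA-binding subunit of the ETS factor GABP (also called nuclear respiratory factor 2), was at 87.8, 74.8 and 73.0 CPM in DMSO Ova and 36.7, 41.1 and 35.8 CPM in iBET Ova, and at 82.2, 64.9 and 68.9 CPM in DMSO IC and 37.5, 40.6 and 40.8 CPM in iBET IC. Every DMSO library lay above every iBET library, those of mice B and C as well as those of mouse A, and the falls were 1.04 and 0.86 on the log2 scale. Its partner Gabpb2 fell by 0.66 in each. Tfam, which packages and transcribes mitochondrial DNA, was at 34.3 ± 9.63, 20.6 ± 3.17, 34.7 ± 5.09 and 19.5 ± 2.41 CPM and fell by 0.69 and 0.83, and Pprc1, a coactivator, fell by 0.52 and 0.53. The fifth was Myc, which fell by 1.72 and 2.27.

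**Figure D5:**
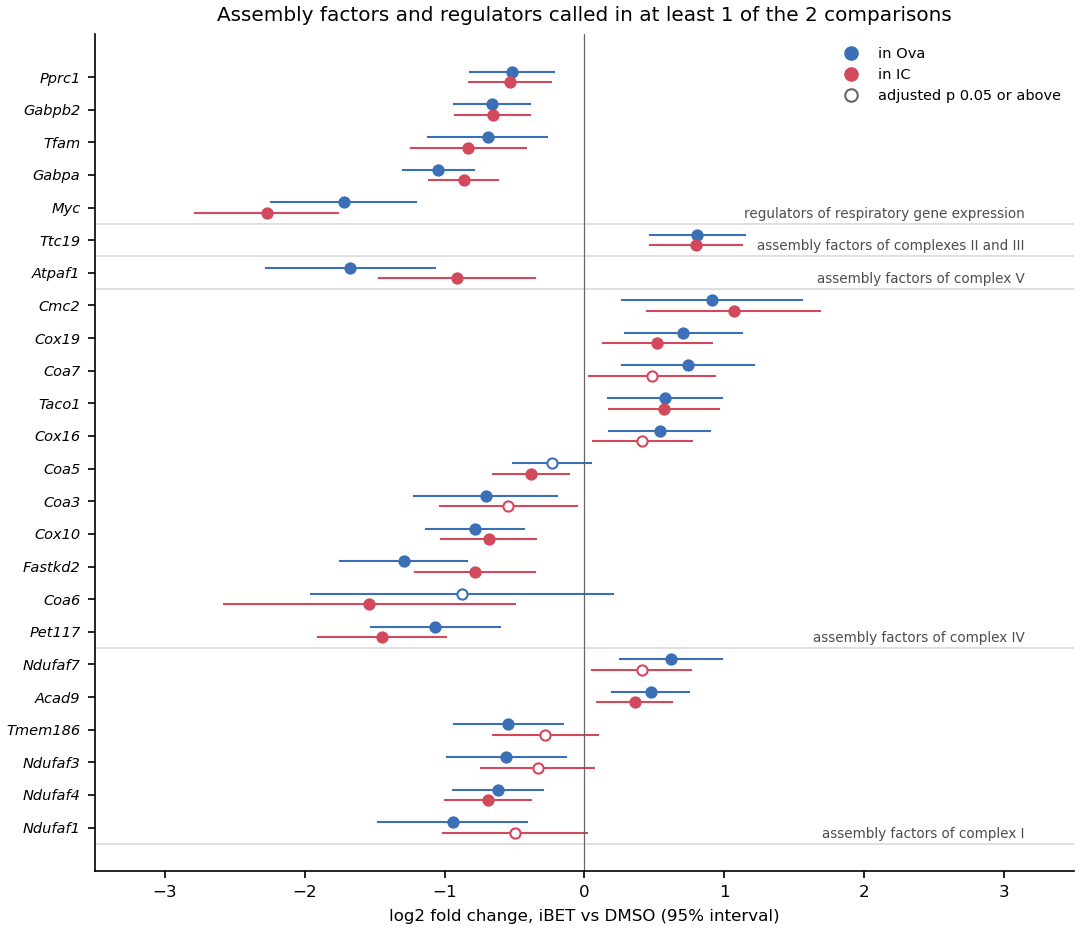
Log2 fold change of iBET against DMSO, with 95% intervals, for the assembly factors and regulators called in at least 1 of the comparisons with Ova and with IC; filled points have an adjusted p under 0.05. The 5 regulators lie below 0 (Gabpa at -1.04 and -0.86), whereas the assembly factors lie on both sides.

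Because the promoters of respiratory genes are known for sites of GABP, NRF1 and YY1, the RefSeq promoter windows of the members (GRCm38.p6, 250 bases before to 50 after a start, both strands) were searched for plain letter matches. Of the 80 members, 64 had windows, 69 in all, and were set beside all 32851 windows. The ETS core CCGGAAG was in 16 member windows (23.2%) and 8.86% of all, the NRF1 letters GCGCATGCG in 8 (11.6%) and 1.75%, and the YY1 letters AAGATGGCG in 7 (10.1%) and 1.40%. The GC box GGGCGG was in 26 (37.7%) and 35.7% of all, and TATAAA in 6 (8.70%) and 13.6%. A letter match is a description of the window and not a bound site.

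The windows below are those of 3 of the members called with IC, and that of Atp5j, which shares its start region with Gabpa. Capitals mark the letters of a searched motif on either strand, all sequences are RefSeq GRCm38.p6 and each reads in the direction of its gene.
Cox5a, chr9:57520982-57521281, plus strand, GC boxes in capitals: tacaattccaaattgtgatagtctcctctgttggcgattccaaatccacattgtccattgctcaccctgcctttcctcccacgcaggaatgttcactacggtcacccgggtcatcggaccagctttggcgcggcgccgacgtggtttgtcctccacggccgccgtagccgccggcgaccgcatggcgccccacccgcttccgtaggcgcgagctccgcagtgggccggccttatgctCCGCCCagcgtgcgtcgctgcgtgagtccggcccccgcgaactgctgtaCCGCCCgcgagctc
Cox6b1, chr7:30626065-30626364, minus strand, ETS core in capitals: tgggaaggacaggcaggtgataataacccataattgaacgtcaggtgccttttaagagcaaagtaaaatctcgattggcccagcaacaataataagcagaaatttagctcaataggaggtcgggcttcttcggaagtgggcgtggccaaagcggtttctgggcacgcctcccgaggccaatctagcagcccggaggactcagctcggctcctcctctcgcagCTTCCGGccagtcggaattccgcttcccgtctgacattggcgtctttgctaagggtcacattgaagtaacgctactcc
Uqcrh, chr4:116075021-116075320, minus strand, ETS core in capitals: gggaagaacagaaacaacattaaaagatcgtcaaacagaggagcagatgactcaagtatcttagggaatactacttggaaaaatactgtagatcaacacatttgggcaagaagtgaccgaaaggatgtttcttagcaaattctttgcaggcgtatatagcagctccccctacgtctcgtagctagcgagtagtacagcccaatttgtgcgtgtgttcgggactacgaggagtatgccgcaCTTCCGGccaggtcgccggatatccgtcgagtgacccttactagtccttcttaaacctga
Atp5j, chr16:84834927-84835226, minus strand, YY1 letters and then ETS core in capitals: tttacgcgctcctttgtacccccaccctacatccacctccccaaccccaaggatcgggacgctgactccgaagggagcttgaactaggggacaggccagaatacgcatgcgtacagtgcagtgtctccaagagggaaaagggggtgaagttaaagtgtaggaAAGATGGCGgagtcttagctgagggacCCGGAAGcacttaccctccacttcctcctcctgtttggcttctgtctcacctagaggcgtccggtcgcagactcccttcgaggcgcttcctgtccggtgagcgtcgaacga

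In Cox6b1 and Uqcrh the single match lay on the reverse strand close before the start, and Cox5a held 2 GC boxes and no ETS core. Atp5j and Gabpa lie head to head: 247 bases of the 300 in the Atp5j window (chr16:84834927-84835173) are also in the Gabpa window on the plus strand. Their transcripts also share 124 bases at 100% identity on opposite strands, so part of the reads cannot be told apart. Gabpa fell with iBET, and Atp5j did not pass.

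Reads of some members could not be assigned with certainty. Of the 80 members, 35 matched the transcript of another annotated gene at 95% identity or more over at least 100 bases, 21 of them a pseudogene, and 11 did so over at least 50% of their own transcript, Atp5k, Atp5l, Atp5h, Uqcrb and Cox7c among them. How reads with several alignments were counted is not given in the sources used here, so values of these members are uncertain to that degree.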

How the data were processed

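Total RNA of 12 BMDM libraries (4 groups of 3) was analysed. The authors deposited counts per gene symbol, which they obtained by trimming with Trim Galore, aligning to mm10 with HISAT2 and counting with featureCounts in Rsubread. Versions, annotation, strand setting and treatment of multiply aligned reads are not given in the sources used here. A normalized copy of the table, also deposited, served only as a check. It equalled the counts divided by DESeq2 size factors, with a largest relative gap of 4.88e-15. Rn45s is a gene of the table and was kept in library sizes.

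Counts were fitted in edgeR 4.0.16 (R 4.3.3): filterByExpr (minimum count 10), TMM, quasi-likelihood, 1 term per group, all 12 libraries, two-sided, Benjamini-Hochberg over 11468 genes, called at an adjusted p under 0.05. The scripts were tested on simulated data. CPM are TMM-normalized. Changes per mouse use a prior count of 2. Without statements on separate cultures, p-values measure the spread between mice and their handling together. Counting precision follows from 1.77 M to 16.9 M counts outside Rn45s.

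Mice pair the groups by the labels. In deviations from group means, 18 pairs of libraries of the same mouse correlated at -0.07 to 0.54 (median 0.26, 12 over 0.1) and 36 pairs of different mice at a median of -0.13. Deviations of the 3 mice in a group sum to 0, which ties the 2 medians together. The negative median is therefore no separate evidence of pairing. Alternatives were DESeq2 1.42.0, its size factors, no filter and a stricter one, the mouse block, removal of a loess trend on length and GC content, 1 surrogate variable (sva 3.50.0), the compared groups alone, Rn45s left out, stricter thresholds and the omission of libraries and mice. Members were named by a rule: a panel of core subunits, the isoform families, members that passed at mean counts of 50 or more with 1 direction in 3 of 3 mice, and single members behind counts of 5 or fewer. An item that the rule selects is not reported here. Atp5k, Atp5j, Ndufb7, Atp5e, Ndufa13, Uqcr11 and the members called in an alternative alone were named after their values were seen. Members, lists and tests were chosen with earlier results of these data known. Copies of transcripts were sought with blastn 2.17.0, and gene positions are those of GENCODE vM21 on GRCm38.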

Additional observations from a re-analysis of the deposited data

How the results depend on the processing

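The counts of members called were small, and no called member changed sign. Those of iBET against DMSO moved with many settings. Those of IC against Ova stayed the same in 28 of 30 alternatives, in DMSO and in iBET alike. Shares of all genes called, in either direction, are given in brackets. Higher with Ova (1 member, 31.3%): 0 with no filter (19.8%), with only the compared groups (26.7%), at an adjusted p under 0.01 and with a change of at least 1.5-fold. With the length and GC trend removed there were 3 (31.9%), and with 1 surrogate variable 10 (41.3%). Leaving out a library or mouse gave 0 to 8, with 8 lacking mouse A (33.6%) and 0 lacking mouse B (11.4%). Lower with Ova (0): none of the 77 but 1 other, Cox6a2, which then entered the test, with DESeq2 (28.5%), no filter (19.8%) or Rn45s left out (30.8%). With 1 surrogate variable there were 2 (41.3%). Leaving out a library or mouse gave 0 to 2, with 2 lacking mouse A's DMSO Ova library (29%). Of these 2, only 1, Ndufs1, was among the 77. Higher with IC (6, 34.8%): 2 at an adjusted p under 0.01 and 1 with a change of at least 1.5-fold. There were 5 with DESeq2 (31.6%) or no filter (22.3%), and 4 with DESeq2 size factors (34.4%), the stricter filter (36.5%) or the compared groups alone (32%). With the length and GC trend removed there were 9 (36%), and with 1 surrogate variable 7 (42.7%). Leaving out a library or mouse gave 1 to 6. There was 1 lacking mouse B (15.4%). There were 2 lacking mouse C (21.6%), mouse A's DMSO IC library (29.3%) or mouse C's iBET IC library (27.5%). There were 3 lacking mouse B's DMSO IC library (31.1%) or mouse A's iBET IC library (27.6%). Lower with IC (0): 1 with DESeq2 (31.6%), 2 with 1 surrogate variable (42.7%), and 0 to 4 when a library or mouse was left out. The 4, lacking mouse B's DMSO IC library (31.1%), were Atp5j, Atp5j2, Ndufa5 and Ndufb7. IC against Ova gave 0 to 1 in DMSO and 0 to 12 in iBET, the upper value without mouse A in each (1.38% and 2.66%). The interaction gave 0 in every alternative run. The cause was not tested.

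With mouse as a replicate block the counts were 3 higher with Ova (38.3% of all genes called), and 7 higher and 1 lower with IC (42.1%). In DESeq2 the replicate block gave 1 lower with Ova, again Cox6a2 (32% of all genes called), and 2 lower with IC (37%). The replicate block with the length and GC trend removed gave 8 higher with Ova and 16 with IC, where 38.9% and 43.2% of all genes were called. Without the DMSO libraries of mouse A, chosen after seeing the data, there were 3 higher and 2 lower with Ova. With IC there were 4 higher and 1 lower, and 36.8% of all genes were called in each comparison. With the replicate block as well there were 7 higher and 2 lower with Ova, where 44% of all genes were called. For IC against Ova 1 was called in each of DMSO and iBET, where 5.38% and 5.29% of all genes were. The replicate block in edgeR changed no other call of a member beyond those given with the comparisons. Calls recurred most for Cox7a2l and Cox5a with IC, each in 29 of 30 alternatives, and least for Atp5a1 with IC, in 12. Depth limits the DMSO Ova library of mouse A most.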
